A study of Mus musculus with 8 samples.

Results

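The genes described here are the regulators of pre-mRNA splicing in the embryonic mouse diaphragm, taken as every gene whose symbol begins with *Srsf*, *Mbnl*, *Celf* or *Rbfox* and a digit, or with *Hnrnp*. The symbols alone picked the members, though the rule was set with earlier results of these data known. The rule found 42 of the 19465 genes in the probe set, of which 11 were *Srsf*, 19 *Hnrnp*, 3 *Mbnl*, 6 *Celf* and 3 *Rbfox* genes. Gene expression had been measured by Visium spatial transcriptomics in 8 horizontal sections of formaldehyde-fixed paraffin-embedded diaphragm, in which each 55 µm spot counts the distinct probe-derived molecules (UMIs) of each gene. The sections fell into 5 groups. The E14.5 sections were 3 controls and 1 section of the CaV1.1 KO (CaV1.1 -/-, the dysgenic mouse, which lacks the voltage sensor of excitation-contraction coupling). At E18.5 a β-cat cKO section stood beside 1 from the KO and 2 from controls. In the β-cat cKO the HSA promoter, active in skeletal muscle, drives the Cre that deletes floxed β-catenin, so that other cells of the section keep the gene. Controls kept at least 1 expressed allele of both genes, and which alleles each control carried was not given. The mutant groups had no replicate. Each section came from 1 embryo, so p-values between groups measure the spread between the few control sections and assume that a lone mutant section varied like them. P-values within sections measure how far a difference between compartments or regions varied from section to section, with 1 estimate of that spread for both ages.

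SR proteins, the products of the *Srsf* genes, bind exonic enhancers through RNA recognition motifs and recruit the spliceosome through domains rich in arginine and serine. The hnRNPs coat nascent transcripts and often block splice sites. Muscleblind-like (MBNL) proteins drive the switch from fetal to adult exons in striated muscle and are sequestered by repeat RNA in myotonic dystrophy, CELF proteins oppose them at many of the same exons, and RBFOX proteins bind UGCAUG next to exons used in muscle and neurons. The probes count transcripts of a gene and do not read which exons were joined. Isoforms of these regulators and splicing itself were therefore not measured.

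Muscle spots were those with a high mean of 9 muscle genes (*Acta1*, *Actn2*, *Des*, *Myl1*, *Mylpf*, *Neb*, *Ryr1*, *Tnnt3* and *Ttn*), and all other tissue spots are called outside. The sections held 14179161 to 82859104 UMIs, 491 to 3092 muscle spots and medians of 15434 to 45284 UMIs per spot. A spot covers several cells, and in sums over spots fewer cells of a type and less RNA per cell cannot be told apart. These genes chose the spots, so their higher sum inside is fixed by the choice and is given as a description. At E14.5 the sum was 19989 to 26416 CPM inside against 4595 to 7157 outside. At E18.5 it was 198986 and 207452 against 47964 and 30230 CPM. CPM are counts scaled to a common library size adjusted by TMM, which sets the bulk of genes near no change. Levels by distance from the nearest outside spot are the exception and carry no TMM scaling. Of the targeted genes, *Cacna1s*, which encodes CaV1.1, read 16.5, 14.96 and 18.4 CPM in the muscle of the E14.5 controls and 13.4 in the KO. That difference of -0.30 ± 0.14 (log2 ± SE) did not pass the test. At E18.5 the gene read 84.4 and 87.3 CPM in the controls against 29.7 in the KO, and the difference of -1.53 ± 0.15 passed. *Ctnnb1*, which encodes β-catenin, read 96.2 CPM in the cKO against 105 and 97.4 in the controls, and its difference of -0.07 ± 0.12 (log2 ± SE) did not pass the test (edgeR adjusted p = 0.77). In the CaV1.1 KO the difference of *Ctnnb1* from the controls was 0.44 ± 0.12 at E14.5, which did not pass the test. At E18.5, where it read 72.9 CPM, the difference of -0.47 ± 0.13 passed. Scaling by library size without TMM moved the median of all genes by 0.54 in that comparison. The *Ctnnb1* difference on that scale is not given here. Where the *Ctnnb1* probes lie relative to the deleted exons was not checked, so the value in the cKO does not check the label. Whether the *Cacna1s* probes lie in the mutated part of its transcript was not checked either.

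The splicing regulators together took a smaller share of muscle RNA at E18.5 than at E14.5. In the muscle spots of the E14.5 controls 1.23%, 1.26% and 1.28% of all UMIs came from the 42 genes, against 0.492% and 0.481% in the E18.5 controls. The *Hnrnp* genes went from 0.811%, 0.835% and 0.838% to 0.285% and 0.278%, and the *Srsf* genes from 0.273%, 0.287% and 0.298% to 0.103% and 0.0999%. The 3 *Mbnl* genes went the other way, from 0.0196%, 0.0196% and 0.0221% to 0.0385% and 0.0382%. The mutant sections lay at 1.38% for the KO at E14.5, 0.774% for the KO at E18.5 and 0.605% for the cKO. These shares carry no test, and they move with the share of the library that transcripts of the contractile apparatus take, which was larger at E18.5. The fold changes in the following text are therefore scaled by TMM, which sets the bulk of genes near no change, and each is a difference relative to that bulk.

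Between E14.5 and E18.5, *Rbfox1*, *Mbnl1* and *Mbnl2* rose in control muscle and most other splicing regulators fell. Of the 41 members tested (*Celf6*, with at most 22 UMIs in any section, was not), 3 were higher at E18.5 and 28 lower (edgeR adjusted p under 0.05), where 33.2% of all 14832 genes tested were higher and 32.5% lower. Their median log2 fold change was -0.57, against -0.01 over all genes. The rise was thus shared by fewer members than genes at large, and the fall by more, as a description of this list. Both E18.5 controls lay below every E14.5 control for 30 of the 41 members and above for 4. That held for all 28 lower and all 3 higher members, so the lack of overlap given below describes a called gene and adds no support. All genes were not counted this way. Scaling by library size moved the median of all genes by -0.72 and gave 3 members higher and 36 lower, where 15.3% of all genes were higher and 60.9% lower, with the same direction for *Rbfox1* (1.38), *Mbnl1* (0.99) and *Mbnl2* (0.91).

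*Rbfox1*, the RBFOX family member of muscle, heart and neurons, had the largest rise of any member. Its level in muscle was 30.2, 23.7 and 34.4 CPM in the E14.5 controls and 119 and 133 CPM in the E18.5 controls. Every E18.5 control lay above every E14.5 control, and the log2 difference was 2.11 ± 0.14 (edgeR adjusted p = 5.0e-06). *Mbnl1*, the principal MBNL protein of skeletal muscle, went from 58.6, 50.5 and 49.6 to 182 and 165 CPM, a log2 difference of 1.71 ± 0.10 (adjusted p = 1.0e-06). *Mbnl2*, its close relative, went from 109, 106 and 124 to 347 and 356 CPM, a difference of 1.64 ± 0.10 (adjusted p = 1.6e-06). Neither gene's ranges at the 2 ages overlapped. *Mbnl3*, the family member linked to proliferating myoblasts, did the opposite at a low level. It read 3.50, 3.78 and 4.08 CPM at E14.5 and 1.94 and 1.46 CPM at E18.5, from 65 to 136 UMIs per section, a difference of -1.15 ± 0.24 (adjusted p = 0.0024).

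*Rbfox2*, the more widely expressed RBFOX gene, did not follow *Rbfox1*. It read 462, 431 and 420 CPM at E14.5 and 352 and 358 CPM at E18.5, a log2 difference of -0.30 ± 0.10 (adjusted p = 0.026). *Celf1*, the CELF gene that opposes MBNL at many muscle exons, fell from 244, 232 and 215 to 169 and 153 CPM (-0.52 ± 0.10, adjusted p = 0.0016). *Celf2* fell from 356, 280.0 and 324 to 263 and 233 CPM (-0.37 ± 0.13, adjusted p = 0.028). For these 3 genes too the E18.5 sections lay apart from the E14.5 sections, though by a smaller margin, and without E18.5 control 2 neither *Celf2* (-0.28, adjusted p = 0.16) nor *Rbfox2* (-0.31, 0.085) passed. *Rbfox3* (NeuN), *Celf3*, *Celf4* and *Celf5*, which are known from neurons, had few UMIs in muscle and did not pass the test.

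Among the *Srsf* genes 9 of 11 were lower at E18.5 and none passed as higher, with a median log2 difference of -0.77. *Srsf3*, which encodes the smallest SR protein and is tied to cell proliferation, fell most. It read 181, 178 and 151 CPM at E14.5 and 47.2 and 30.7 CPM at E18.5, a difference of -2.12 ± 0.19 (adjusted p = 6.3e-05). *Srsf7*, a close homolog, fell from 117, 106 and 109.6 to 55.1 and 47.4 CPM (-1.11 ± 0.09, adjusted p = 9.9e-06). *Srsf1*, the founding SR protein, fell from 518, 494 and 501 to 272 and 245 CPM (-0.96 ± 0.11, adjusted p = 4.7e-05). In none of the 3 did the ages overlap, and E18.5 control 2 read lower than E18.5 control 1 in each. *Srsf9* (-0.98 ± 0.09), *Srsf6* (-0.77 ± 0.10), *Srsf4* (-0.56 ± 0.09), *Srsf11* (-0.52 ± 0.10) and *Srsf5* (-0.51 ± 0.10) were also lower, as was the scarce *Srsf12* (-1.81 ± 0.32). *Srsf2* (SC35), which marks nuclear speckles, read 66.7, 65.6 and 73.1 CPM at E14.5 and 71.6 and 86.6 CPM at E18.5. Its difference of 0.21 ± 0.10 did not pass the test (adjusted p = 0.098) and was -0.51 when sums were scaled by library size.

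Of the 19 *Hnrnp* genes 15 were lower at E18.5, none was higher, and the median log2 difference was -0.84. *Hnrnpa1*, which encodes an abundant repressor of exon inclusion, fell from 517, 521 and 511 CPM to 162 and 140.1 CPM (-1.77 ± 0.11, adjusted p = 1.8e-06). Its relative *Hnrnpa3* fell from 421, 395 and 340.0 to 179 and 123 CPM (-1.35 ± 0.17, adjusted p = 1.8e-04). *Hnrnpd* (AUF1), which also binds AU-rich mRNA, fell from 650.2, 578 and 541 to 269 and 214 CPM (-1.29 ± 0.14, adjusted p = 4.5e-05). The gap between ages exceeded the spread among sections in all 3. *Hnrnpc*, a core protein of the hnRNP particle that binds uridine tracts, fell from 159, 158 and 147 to 75.5 and 57.4 CPM (-1.22 ± 0.12, adjusted p = 3.0e-05). *Hnrnpr* read 27.6, 25.8 and 36.9 against 13.4 and 12.3 CPM (-1.22 ± 0.16, adjusted p = 1.8e-04). *Hnrnpk*, which binds cytidine-rich RNA, read 427, 419.9 and 373 against 227 and 162 CPM (-1.06 ± 0.15, adjusted p = 3.0e-04). *Hnrnpll* (-1.14 ± 0.08) and *Hnrnpm* (-1.05 ± 0.12) were lower by similar amounts, and *Hnrnpl*, which binds CA repeats, by less (-0.30 ± 0.09, adjusted p = 0.014).

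Not all *Hnrnp* genes passed the test as lower. *Hnrnpa2b1*, whose protein resembles that of *Hnrnpa1*, read 305, 330.1 and 304 CPM at E14.5 and 256 and 289 CPM at E18.5 (-0.20 ± 0.10, adjusted p = 0.12). Both of its E18.5 values lay below every E14.5 control. *Hnrnpu*, a scaffold protein of chromatin and RNA, read 295, 312 and 326 against 258 and 313 CPM (-0.12 ± 0.11, adjusted p = 0.38), and its ages overlapped. *Hnrnpf* and *Hnrnpul2* did not pass the test either. Probe sequences were not used here, and whether processed copies of genes such as *Hnrnpa1* add to its counts was not checked.

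**Figure D1:**
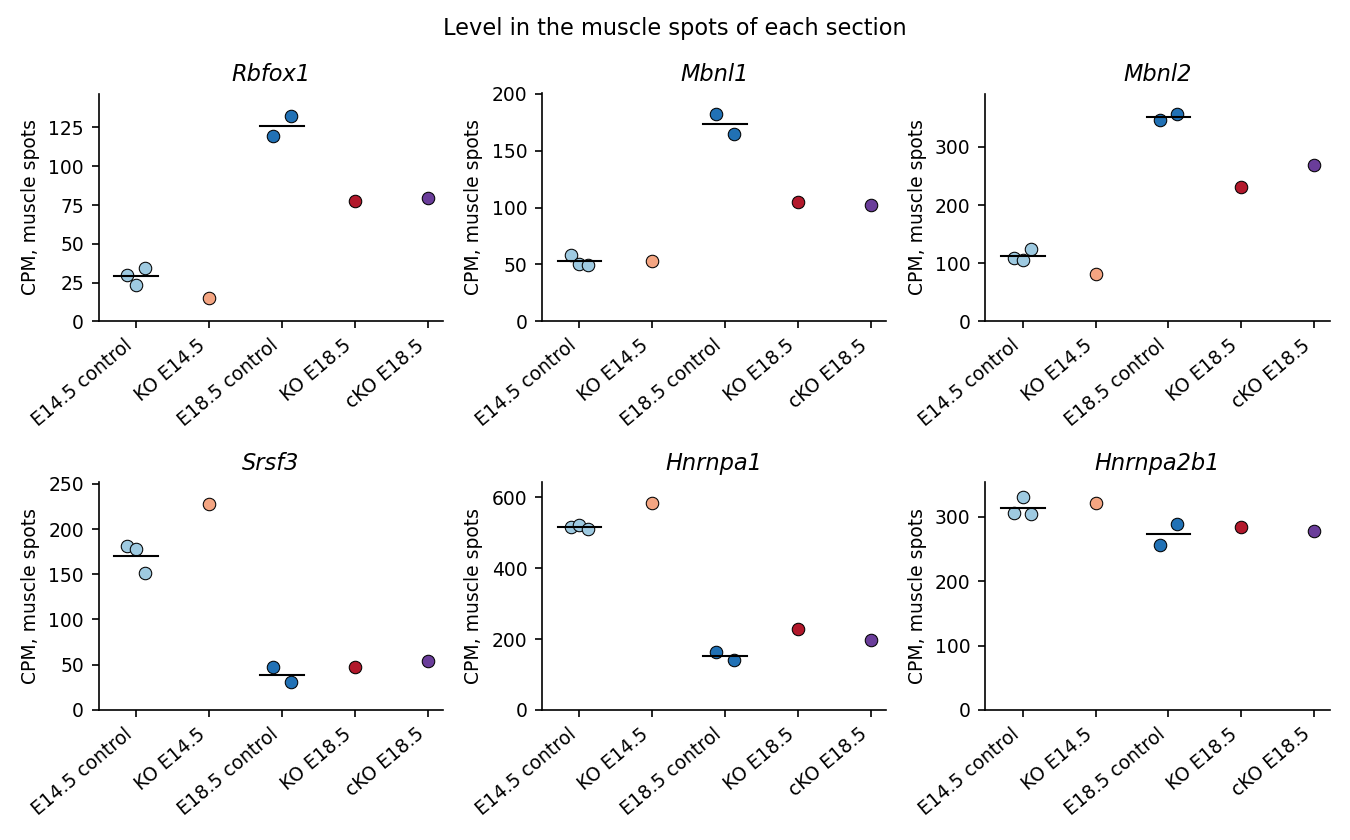
Level in muscle spots (CPM after TMM scaling over the muscle sums, linear axis from 0) of 6 genes, 1 point per section, with a line at the mean of each control group. *Rbfox1*, *Mbnl1* and *Mbnl2* are higher in the 2 E18.5 controls than in the 3 E14.5 controls, *Srsf3* and *Hnrnpa1* are lower, and *Hnrnpa2b1* lies between 256 and 330.1 CPM in all 8 sections.

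Other cell states moved with age in the same spots. The summed muscle genes went from 17723 to 23875 CPM at E14.5 to 176907 and 180332 CPM at E18.5, with 9 of 9 higher. The cycling genes *Mki67*, *Top2a*, *Cdk1* and *Birc5* were all lower at E18.5, and the sum of their list went from 891 to 1006 CPM to 295 and 222 CPM. Of the myogenic progenitor genes *Pax7*, *Myf5* and *Myog* were lower and *Mymk* higher (0.55, edgeR adjusted p = 0.05 after rounding). The part of these changes in the levels of the splicing regulators was not tested.

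The promoters of the 5 genes with the largest changes in level with age, among members at a mean log2 CPM of 4 or more in muscle, are printed to show what kind of sequence lies in front of the genes that rose and that fell. Each run is the 250 bases before the annotated start in RefSeq (GRCm38.p6, plus strand in all 5), in lower case with matches to the motifs searched in capitals. *Mbnl1* has a start at chr3:60500929-60501178 (the 250 bases before it) with 73.6% GC and 33 CpG, in which the capitals mark the E2F motif TTCCCGC, and a start further upstream (chr3:60472580-60472829) with 38.0% GC. The bases of the upstream start are not printed and hold the CCAAT box at 230 and 140 bases before that start. For *Mbnl2* the bases are chr14:120275419-120275668 (57.2% GC), with the CCAAT box once on each strand. For *Rbfox1* the second start is shown, chr16:7069585-7069834 (48.4% GC, 6 CpG), with the E-box CAGCTG, while the first, chr16:5884543-5884792, held no motif searched. *Srsf3* (chr17:29032410-29032659, 69.6% GC, 35 CpG) holds the CCAAT box on the minus strand and the MEF2 motif CTANNNNTAG near its start. *Hnrnpa1* (chr15:103240147-103240396, 46.0% GC, 11 CpG) holds the CCAAT box 4 times.
Mbnl1: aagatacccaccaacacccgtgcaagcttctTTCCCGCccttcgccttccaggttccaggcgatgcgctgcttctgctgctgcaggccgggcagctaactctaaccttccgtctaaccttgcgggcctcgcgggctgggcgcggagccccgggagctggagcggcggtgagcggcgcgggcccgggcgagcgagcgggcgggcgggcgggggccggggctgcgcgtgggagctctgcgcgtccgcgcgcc
Mbnl2: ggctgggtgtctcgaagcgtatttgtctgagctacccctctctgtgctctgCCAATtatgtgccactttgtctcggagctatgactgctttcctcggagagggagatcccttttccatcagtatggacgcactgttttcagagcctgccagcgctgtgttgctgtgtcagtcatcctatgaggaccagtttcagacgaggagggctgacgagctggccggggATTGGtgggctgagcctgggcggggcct
Rbfox1: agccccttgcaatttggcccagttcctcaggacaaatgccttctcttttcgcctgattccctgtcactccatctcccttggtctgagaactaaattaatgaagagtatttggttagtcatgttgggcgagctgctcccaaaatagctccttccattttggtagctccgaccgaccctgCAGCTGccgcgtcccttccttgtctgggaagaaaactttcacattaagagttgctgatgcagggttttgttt
Srsf3: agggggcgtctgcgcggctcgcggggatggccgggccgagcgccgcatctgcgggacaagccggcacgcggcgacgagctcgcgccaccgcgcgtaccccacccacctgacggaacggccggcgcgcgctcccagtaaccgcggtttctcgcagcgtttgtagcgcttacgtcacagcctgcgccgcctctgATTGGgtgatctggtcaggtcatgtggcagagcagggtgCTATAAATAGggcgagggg
Hnrnpa1: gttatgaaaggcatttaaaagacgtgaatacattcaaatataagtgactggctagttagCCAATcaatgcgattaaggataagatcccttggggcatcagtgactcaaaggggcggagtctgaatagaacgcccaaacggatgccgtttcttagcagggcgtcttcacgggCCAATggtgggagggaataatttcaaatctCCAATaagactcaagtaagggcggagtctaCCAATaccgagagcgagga

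RefSeq gave 63 such promoters for 38 of the 42 members, and *Celf4*, *Hnrnpll*, *Hnrnpul2* and *Rbfox2* were not among them. Their median GC content was 63.2% with a median of 18 CpG, against 52.4% and 6 over all 32851 promoters of the table. Searched on both strands, TTCCCGC (E2F) was in 12 member promoters (19.0%, against 3.82% of all), GCGCNNGCGC (NRF1) in 10 (15.9% against 4.98%), the CCAAT box in 26 (41.3% against 33.8%) and the E-box CAGCTG in 11 (17.5% against 13.0%). CTANNNNTAG (MEF2) was in 1 (1.59% against 3.2%) and the CArG box in none (1.47% of all). Several promoters can belong to 1 gene, letters rich in G and C match more often in GC-rich sequence, and a match is no evidence of binding.

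The other splicing genes, in 3 lists of 99 genes in all, also fell more often than they rose under TMM scaling. Over all genes 33.2% were higher and 32.5% lower at E18.5. Library size scaling gave 15.3% higher and 60.9% lower, and the lists were not counted on that scale. Of the core spliceosome 29 of 38 genes tested were lower at E18.5 and 4 higher (median log2 difference -0.73). The lower ones with the largest change were *Magoh* (-1.55) of the exon junction complex and *Snrpe* (-1.53), *Sf3b4* (-1.39) and *Snrpd1* (-1.36) of the snRNPs. *Prpf19*, a ubiquitin ligase of the active spliceosome, was higher (1.08), from 248, 216 and 206 to 479 and 465 CPM. Of the SR-related proteins and their kinases 6 of 14 were lower and 1 higher (*Clk3*, 0.52), with *Srpk1* (-1.22) and *Tra2a* (-1.20) lowest. Of the other regulators 23 of 38 were lower and 8 higher. Among those at a mean log2 CPM of 4 or more, *Rbm38*, which is known from muscle differentiation, rose most, from 51.0, 44.6 and 46.2 to 283 and 314 CPM (2.66), followed by *Msi2* (0.89), *Qk* (0.88), an activator of muscle exons, and *Rbm20* (0.62), the splicing regulator of titin. Below that level the neuronal genes *Nova2* (1.74) and *Elavl3* (2.01) were higher too, *Elavl3* at no more than 1.22 CPM in any control. The neuronal genes *Elavl2* and *Elavl4* went the other way. *Elavl2* read 10.0, 8.62 and 6.41 CPM at E14.5 and 1.24 and 2.74 at E18.5. *Elavl4* read 2.41, 2.84 and 2.26 against 0.400 and 1.02 CPM. *Msi1*, a marker of progenitor cells, fell most, from 30.8, 31.5 and 33.7 to 5.27 and 4.84 CPM (-2.66), and *Ptbp2*, *Sfpq* and *Taf15* fell by 1.14, 1.22 and 1.28 on the log2 scale.

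At E14.5 no splicing regulator passed the test between the CaV1.1 KO and the controls. Over all genes 0.816% were higher and 1.99% lower in this comparison, 6 members and 16.6% of all genes had an unadjusted p under 0.05, and DESeq2 called 2 members lower, *Rbfox1* and *Mbnl2*, and 3.65% of all genes. The median over the members was 0.12 and over all genes 0.00. *Rbfox1* had the largest difference of the named members, with 15.3 CPM in the KO against 23.7 to 34.4 CPM in the controls (-0.94 ± 0.20, edgeR adjusted p = 0.056). It passed when the filter on low counts was dropped (adjusted p = 0.017), when the muscle spots were chosen more strictly (0.014) and without E14.5 control 2 (0.013). *Mbnl2* read 80.8 CPM in the KO against 106 to 124 (-0.48 ± 0.13, adjusted p = 0.11), below every control. *Mbnl1* lay within the controls at 53.0 CPM (0.00 ± 0.13). *Srsf3*, at 228 CPM, and *Hnrnpc*, at 207 CPM, were above every E14.5 control, with differences of 0.42 ± 0.22 and 0.42 ± 0.15 that did not pass (adjusted p = 0.41 and 0.19). In all, 22 of the 41 members tested lay above every E14.5 control in this KO and 6 below, and all genes were not counted this way. In the 3 other lists the kinase *Srpk3*, a target of MEF2 in muscle, was lower (70.7 against 115 to 144 CPM, -0.87, adjusted p = 0.019) and was the only gene to pass. The muscle genes summed to 13434 CPM in this KO against 17723 to 23875, and the immune genes 190.1 against 100.1 to 110.3, and their part in the result was not tested.

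At E18.5 the genes that had risen most with age were lower in the CaV1.1 KO. The KO and the cKO were compared with the same 2 E18.5 controls, which also enter the comparison of ages, so the 3 sets of values are not independent. Of 41 members 4 were higher and 5 lower in the KO, where 11.1% of all genes were higher and 15.8% lower. The shares of members were thus close to those of all genes, and the median was 0.11 against 0.00. *Mbnl1* read 105 CPM in the KO against 182 and 165 in the controls (-0.72 ± 0.14, adjusted p = 0.006). *Rbfox1* read 77.7 against 119 and 133 (-0.70 ± 0.20, adjusted p = 0.034). *Mbnl2* read 230.2 against 347 and 356 (-0.61 ± 0.14, adjusted p = 0.014). All 3 lay below both E18.5 controls and above every E14.5 control. Of the 41 members 12 lay below both E18.5 controls in the KO and 23 above both. All genes were not counted this way, so these counts describe the members alone. *Hnrnpl* (119 against 164 and 160.5 CPM, -0.45 ± 0.12, adjusted p = 0.022) and *Hnrnpul2* (72.4 against 94.98 and 93.3 CPM, -0.38 ± 0.12, adjusted p = 0.041) were the other members that were lower. When each control was left out in turn, *Mbnl1* and *Mbnl2* passed each time. *Rbfox1* did not pass without E14.5 control 1 (adjusted p = 0.06), E18.5 control 1 (0.055) or E18.5 control 2 (0.096), and *Hnrnpl* and *Hnrnpul2* did not without E18.5 control 1 (0.057 and 0.086).

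Among the members higher in the KO at E18.5, *Hnrnpa1*, *Srsf1* and *Hnrnph3* had fallen with age. *Hnrnpl*, which was lower in the KO, had fallen with age too. *Hnrnpa1* read 228 CPM against 162 and 140.1 in the controls (0.59 ± 0.14, adjusted p = 0.015), and *Srsf1* 365 against 272 and 245 CPM (0.50 ± 0.13, adjusted p = 0.027). *Hnrnph3*, whose protein binds guanosine-rich RNA, read 106 against 79.5 and 81.8 CPM (0.39 ± 0.10, adjusted p = 0.021). *Celf4*, a neuronal gene, read 12.2 CPM, or 210 UMIs, against 2.71 and 4.80 CPM (1.70 ± 0.35, adjusted p = 0.0096), and under a stricter choice of muscle spots it did not pass (0.90, adjusted p = 0.21). Without E18.5 control 2, *Hnrnpa1* (0.49, adjusted p = 0.057) and *Srsf1* (0.43, 0.093) did not pass. *Srsf3* (47.7 against 47.2 and 30.7 CPM) and *Rbfox2* (342 against 352 and 358 CPM) did not pass the test.

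The directions in the KO at E18.5 hold relative to the bulk of genes. The summed muscle genes, which take a large share of the library, were at 67444 CPM in the KO against 176907 and 180332, with 9 of 9 lower, and scaling by library size moved the median of all genes by 0.54. On that scale 27 members were higher and none lower, where 49.4% of all genes were higher and 5.18% lower. *Mbnl1* (-0.18, adjusted p = 0.18), *Rbfox1* (-0.16, 0.53) and *Mbnl2* (-0.07, 0.69) did not pass, and *Hnrnpl* (0.09) and *Hnrnpul2* (0.16) changed sign. With a stricter choice of muscle spots *Mbnl1* (-0.57, adjusted p = 0.0097), *Mbnl2* (-0.57, 0.012) and *Rbfox1* (-0.46, 0.047) passed. Schwann cell genes summed to 104 CPM in the KO against 33.9 and 32.2 (5 of 5 higher), immune genes to 362 against 141 and 184 (5 of 5 higher) and endothelial genes to 348 against 613 and 547 (4 of 5 lower). Their part in these results was not tested.

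In the β-cat cKO 2 members were lower and none higher, where 6.37% of all genes were lower and 3.65% higher. Library size scaling turned this to 13 higher and 1 lower (16.4% and 4.18% of all genes). The median over the members was 0.15, against -0.01 over all genes. *Mbnl1* read 102 CPM against 182 and 165 (-0.77 ± 0.14, adjusted p = 0.011), which also passed with library size scaling (-0.55, 0.013). *Srsf2* read 54.0 against 71.6 and 86.6 CPM (-0.55 ± 0.14, adjusted p = 0.04), which did not (-0.33, 0.14), nor did it without E14.5 control 2 (0.059), E14.5 control 3 (0.069) or E18.5 control 2 (0.1). Both lay below both controls, as did 7 of the 41 members in all, while 21 lay above both, and all genes were not counted this way. *Rbfox1* read 79.2 CPM against 119 and 133 (-0.67 ± 0.20, adjusted p = 0.07), *Mbnl2* 269 against 347 and 356 (-0.38 ± 0.14, 0.12), *Srsf1* 346 against 272 and 245 (0.42 ± 0.13, 0.087) and *Hnrnpa1* 198 against 162 and 140.1 (0.39 ± 0.14, 0.12). None of these 4 passed. The muscle genes summed to 124204 CPM with none of 9 called, immune genes 282 CPM with 5 of 5 higher, and Schwann cell genes 26.0 CPM. The part of the immune genes in the result was not tested.

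Other splicing genes of muscle can be read beside these. *Rbm38* was at 101 CPM in the KO and 162 in the cKO against 283 and 314 in the E18.5 controls, with fitted differences of -1.56 and -0.88 that both passed the test. *Msi2* (-0.90 and -0.67) and *Qk* (-0.62 and -0.60) were lower and *Msi1* (0.91 and 0.63) higher in both. *Rbm20* (-0.88), *Srpk3* (-1.11) and *Prpf19* (-0.90) were lower in the KO. In the core spliceosome 3 genes were higher and 2 lower in the KO, and 3 were higher and none lower in the cKO. Among the other regulators 2 were higher and 6 lower in the KO, and 2 and 5 in the cKO. Of the SR-related proteins and kinases 2 were higher and 1 lower in the KO and none passed in the cKO. As many genes of each list were tested as in the comparison of ages. Over all genes 11.1% were higher and 15.8% lower in the KO, and 3.65% and 6.37% in the cKO. These values too hold relative to the bulk of genes. Library size scaling moved the median of all genes by 0.54 in the KO and 0.22 in the cKO. The lists were not counted on that scale.

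The effect of the KO differed between the ages for 2 members, where 5.27% of all genes were lower and 2.93% higher in this contrast. Library size scaling gave 16 members higher and none lower (31% and 1.77% of all genes). Neither of the 2 calls held without E14.5 control 2, E14.5 control 3 or E18.5 control 1. *Mbnl1* had a KO effect of 0.00 at E14.5 and was lower at E18.5, a difference between the effects of -0.72 ± 0.18 (adjusted p = 0.047). For *Hnrnpl*, which read 241 CPM in the KO at E14.5 against 195 to 205 in the controls, it was -0.73 ± 0.16 (adjusted p = 0.03). For *Rbfox1* (0.24, adjusted p = 0.62) and *Mbnl2* (-0.13, 0.72) no difference between the ages could be shown.

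**Figure D2:**
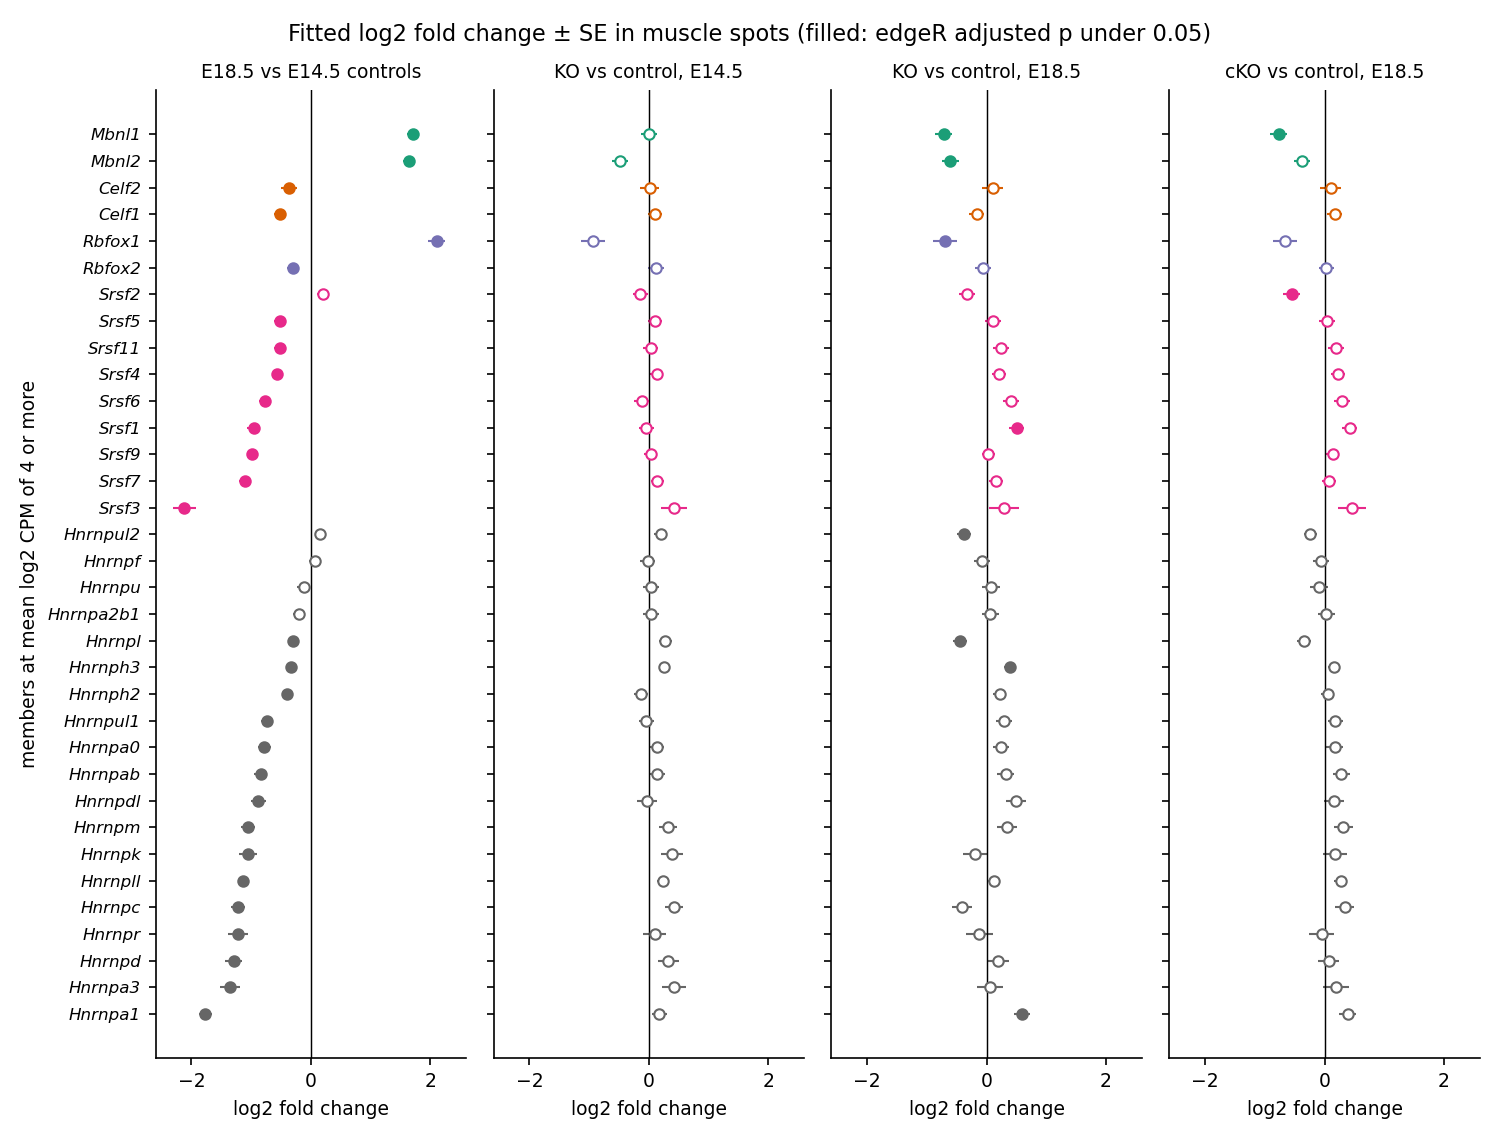
Log2 fold change with its SE for the 34 members at a mean log2 CPM of 4 or more in muscle, in 4 comparisons, colored by family and filled where the edgeR adjusted p was under 0.05. *Mbnl1*, *Mbnl2* and *Rbfox1* stand to the right of the other members with age and lie left of 0 in both mutants at E18.5, where *Mbnl2* and *Rbfox1* passed in the KO and not in the cKO.

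Outside muscle the same 3 genes rose with age, while 11 of 19 *Hnrnp* genes were lower and 2 higher, and 5 of 11 *Srsf* genes lower and 1 higher. Of 42 members 6 were higher and 18 lower at E18.5, where 16.9% of all genes were higher and 14.3% lower, with a median of -0.44 against 0.03. Library size scaling gave 3 higher and 26 lower (11.5% and 27.4% of all genes). *Rbfox1* read 13.1, 11.0 and 13.0 CPM in the outside sums at E14.5 and 39.2 and 30.4 at E18.5 (1.50 ± 0.20, adjusted p = 0.0029). *Mbnl1* read 85.2, 74.3 and 64.4 against 184 and 161 CPM (1.20 ± 0.15, 0.0022), and *Mbnl2* 132, 154 and 166 against 281 and 299 CPM (0.95 ± 0.13, 0.0036). The ages did not overlap in any of them. *Srsf2* (0.67 ± 0.15, adjusted p = 0.015), *Hnrnpf* (0.46 ± 0.13, 0.035) and *Hnrnpul2* (0.46 ± 0.12, 0.027) were higher too, and without E18.5 control 2 none of these 3 passed (adjusted p = 0.083, 0.15 and 0.061). *Srsf3* fell from 191, 166 and 124 to 53.6 and 41.5 CPM (-1.76 ± 0.22, adjusted p = 0.0024) and *Hnrnpa1* from 557, 532 and 451 to 195 and 201 CPM (-1.38 ± 0.15, adjusted p = 0.0015). The outside spots were not free of muscle, since the summed muscle genes rose there from 5261 to 8087 CPM to 56294 and 34855 CPM. With outside spots chosen more strictly, *Rbfox1* (1.42, adjusted p = 0.036), *Mbnl1* (1.13, 0.016) and *Mbnl2* (0.90, 0.017) passed. The muscle genes left in those stricter spots were not summed. The part of muscle RNA in the 3 rises outside muscle was therefore not tested. Other organs also lay under some sections, with adrenal cortex genes at 1672 CPM in E14.5 control 1 and hepatocyte genes at 12789.9 CPM in E18.5 control 1 against 2.06 in E18.5 control 2.

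Muscle was compared with the outside of the same sections to ask which regulators are higher in muscle. At E14.5 19 of 42 members were higher in muscle and 2 lower, where 23.0% of all genes were higher and 17.7% lower. At E18.5 11 were higher and 9 lower, against 31.1% and 26.6% of all genes. At E14.5 library size scaling gave 5 members higher and 8 lower (12.1% and 30.4% of all genes) and upper quartile scaling 9 and 5 (16.4% and 24% of all genes). Levels in this comparison are CPM on a scale common to muscle and outside sums. *Rbfox1* was the member most concentrated in muscle, with 33.4, 26.7 and 38.5 CPM inside and 11.6, 9.60 and 11.4 outside at E14.5 (1.54 ± 0.13, adjusted p = 1.7e-04), and 134 and 153 inside and 33.4 and 26.4 outside at E18.5 (2.26 ± 0.13, adjusted p = 3.1e-05). *Rbfox2* was at 511, 486 and 469.9 CPM inside and 341, 345 and 344 outside at E14.5 (0.51 ± 0.07, 0.0012) and at 396 and 412 against 238 and 223 at E18.5 (0.81 ± 0.08, 1.5e-04). *Celf2* was at 394, 316 and 363 against 202, 167 and 149.7 CPM at E14.5 (1.04 ± 0.08, 1.6e-04) and at 296 and 268 against 189.9 and 159.5 at E18.5 (0.69 ± 0.10, 7.6e-04). *Celf1* was higher in muscle at both ages (0.50 ± 0.06 and 0.69 ± 0.07, adjusted p = 8.3e-04 and 1.9e-04). In each section these genes read higher inside muscle than outside it.

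*Mbnl1* and *Mbnl2* were higher in muscle than outside at E18.5 and did not pass the test at E14.5, and *Mbnl3* did not pass at E18.5 (-0.31 ± 0.32, adjusted p = 0.43). *Mbnl1* read 64.8, 56.9 and 55.4 CPM inside and 75.4, 64.9 and 56.5 outside at E14.5 (-0.16, adjusted p = 0.077), and 205 and 189.7 inside against 157 and 139.9 outside at E18.5 (0.41 ± 0.07, adjusted p = 0.002). *Mbnl2* read 120.2, 119 and 139 inside and 117, 135 and 145 outside at E14.5 (-0.07, 0.44), and 389.9 and 409 against 239.6 and 259 at E18.5 (0.68 ± 0.08, 2.4e-04). The excess in muscle differed between the ages by 0.57 for *Mbnl1* (adjusted p = 0.0068), 0.75 for *Mbnl2* (0.0036) and 0.72 for *Rbfox1* (0.03), while it became smaller for *Hnrnpf* (-0.34, 0.046) and *Srsf9* (-0.35, 0.045). Over all genes 13.9% had a larger and 7.73% a smaller excess at E18.5. *Hnrnpf*, which binds guanosine tracts, read 52.7 and 62.4 CPM inside and 76.4 and 85.6 outside at E18.5 (-0.50 ± 0.07, adjusted p = 0.001). Library size scaling moved the median of all genes by -0.20 at E14.5, -0.68 at E18.5 and -0.48 for the difference, and on that scale 34 members were lower in muscle at E18.5, as were 63.3% of all genes, and *Mbnl1* changed sign there (-0.27). *Rbfox1* was the 1 member still higher, where 11.8% of all genes were. For the difference, 26 members had a smaller excess at E18.5 on that scale and none a larger one (37.9% and 4.82% of all genes), and upper quartile scaling gave 10 and 3 (12.1% and 10.7%).

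*Celf3*, a neuronal member, was mostly found outside the muscle of 2 control sections. It had 226 UMIs outside muscle in E14.5 control 1 and 211 in E18.5 control 2, against 6, 0 and 15 in the other 3 controls, and 14 to 108 UMIs in all muscle spots of the E18.5 controls. The neuron genes were highest outside muscle in the same 2 sections, at 371 and 664 CPM against 30.2 to 110.2 CPM in the other controls. *Celf4* was at 15.2, 14.6 and 12.6 CPM outside and 3.78, 4.83 and 5.90 inside at E14.5 (-1.62 ± 0.23, edgeR adjusted p = 0.0017), and at 16.2 and 17.0 against 3.05 and 5.52 at E18.5 (-2.01 ± 0.27, 5.6e-04). It was spread more evenly over the sections than *Celf3*.

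**Figure D3:**
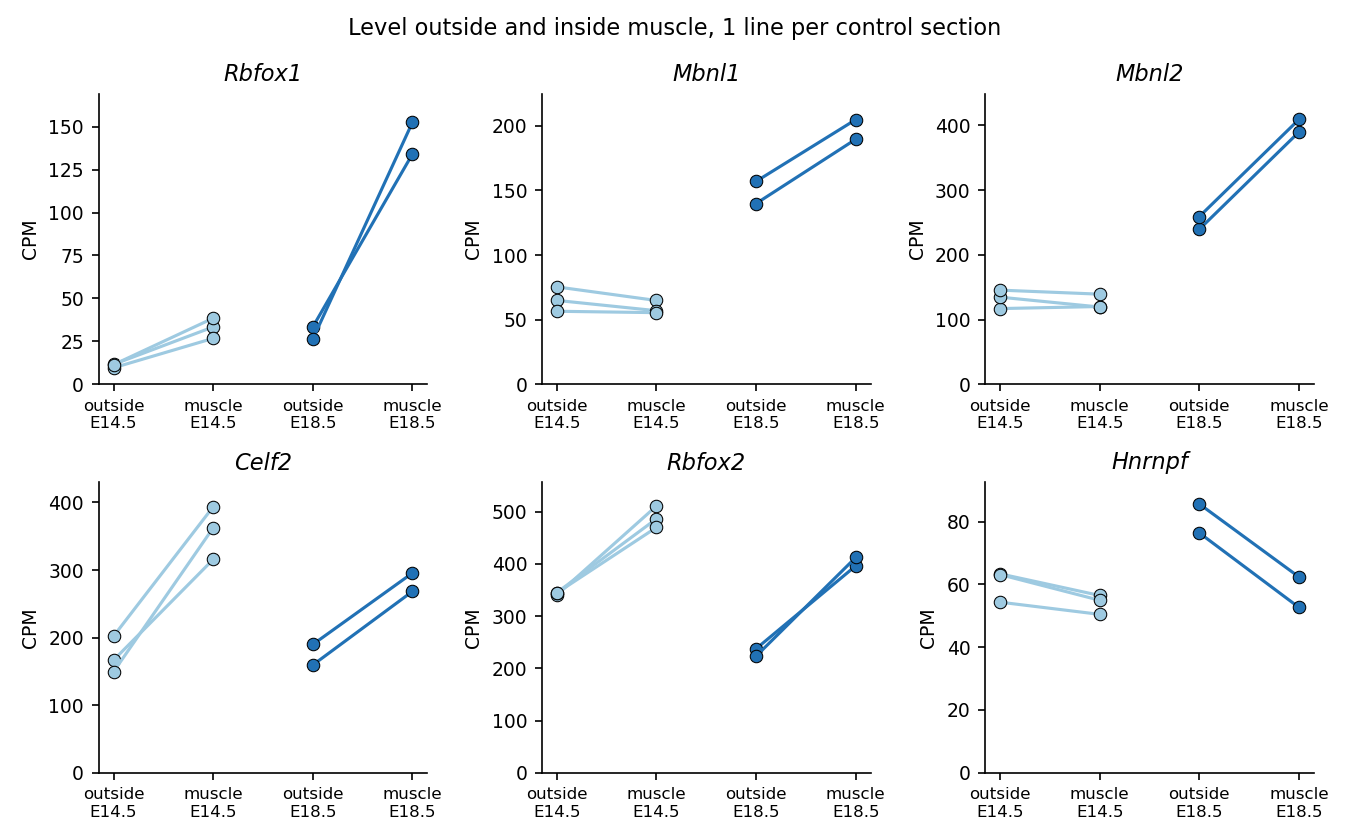
Level (CPM, common TMM scale, linear axis from 0) of 6 genes in the outside and muscle spots of each control section, 1 line per section, light for E14.5 and dark for E18.5. The lines of *Rbfox1*, *Celf2* and *Rbfox2* rise into muscle at both ages, and those of *Mbnl1* and *Mbnl2* rise clearly at E18.5 alone. Those of *Hnrnpf* fall into muscle in every control section, more steeply at E18.5.

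Within muscle, spots at the center (the 15% with the highest score of 8 genes of the neuromuscular junction) and at the periphery (the 15% highest in 4 genes of the myotendinous junction) were compared with the intermediate spots of the same section. No splicing regulator was in either score, and 40 members were tested. At E14.5 *Rbfox1*, *Rbfox2*, *Celf1* and *Celf2* were higher at the center. Of the members 5 were higher there and 2 lower, where 9.59% of all genes were higher and 6.37% lower. *Rbfox1* read 35.3, 31.3 and 39.2 CPM at the center against 27.4, 22.1 and 35.1 in intermediate muscle (0.37 ± 0.09, adjusted p = 0.0024). *Rbfox2* read 529, 537 and 468 against 439, 416 and 417 CPM (0.28 ± 0.04, 4.3e-06), and *Celf2* 374, 326 and 365 against 343, 270.5 and 327 CPM (0.18 ± 0.04, 0.0015). All 3 were higher at the center in each section. *Celf1* (0.15 ± 0.04) and *Hnrnpll* (0.18 ± 0.05) were higher too, and *Hnrnpf* (-0.21 ± 0.07) and *Hnrnpul2* (-0.18 ± 0.06) lower. The sum of the muscle genes was also higher at the center (26185, 21946 and 21172 against 22616, 16402 and 18263 CPM), and with stricter muscle spots *Rbfox2* alone passed (0.20, adjusted p = 1.2e-04), with *Rbfox1* at 0.20 (0.29) and *Celf2* at 0.04 (0.79). Without E14.5 control 2, *Rbfox1* (0.28, adjusted p = 0.15) and *Celf2* (0.14, 0.11) did not pass either. The part of muscle content in these differences was not tested.

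At E18.5 *Mbnl1*, *Mbnl2*, *Celf2* and *Rbfox1* were lower at the center than in intermediate muscle. Of the members 1 was higher there (*Hnrnpll*, 0.18 ± 0.06) and 4 lower, where 4.46% of all genes were higher and 8.98% lower. *Mbnl1* read 159 and 144 CPM against 192 and 174 in intermediate muscle (-0.27 ± 0.04, adjusted p = 1.8e-05) and *Mbnl2* 325 and 333 against 361 and 370.1 CPM (-0.15 ± 0.04, 0.0083). *Celf2* read 243 and 214 against 270.3 and 242 CPM (-0.16 ± 0.05, 0.018) and *Rbfox1* 112 and 128 against 127 and 140.4 CPM (-0.15 ± 0.05, 0.045). In both sections all 4 were lower at the center. Without either E18.5 control, and with stricter muscle spots, *Mbnl1* was the only one of them to pass (stricter spots -0.21, adjusted p = 0.037). A test of the change with age, chosen after these values were seen, gave -0.52 ± 0.10 for *Rbfox1* (adjusted p = 2.8e-04), -0.35 ± 0.06 for *Celf2* (1.2e-04), -0.31 ± 0.06 for *Rbfox2* (6.2e-04) and -0.20 ± 0.06 for *Celf1* (0.024), 4 members in all with a smaller excess at the center and none with a larger one, where 10.1% of all genes had a smaller and 5.0% a larger one. Library size scaling turned this split to 15 members with a larger and 1 with a smaller excess (19.4% and 3.53% of all genes), and upper quartile scaling gave 2 and 3 (7.4% and 6.76%).

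Relative to the bulk of genes, the periphery chosen by score held less *Rbfox1*, *Mbnl1* and *Mbnl2* transcript at E18.5. Of the members 2 were higher there and 6 lower, where 11.3% of all genes were higher and 22.1% lower. *Rbfox1* read 94.0 and 99.4 CPM at the periphery against 127 and 140.4 in intermediate muscle (-0.46 ± 0.05, adjusted p = 7.4e-09). *Mbnl1* read 159 and 141 against 192 and 174 CPM (-0.29 ± 0.04, 1.8e-06) and *Mbnl2* 299.7 and 306 against 361 and 370.1 CPM (-0.27 ± 0.04, 1.9e-06). In both sections all 3 were lower at the periphery. With stricter muscle spots *Mbnl1* passed (-0.21, adjusted p = 0.045), and *Rbfox1* (-0.22, 0.067) and *Mbnl2* (-0.14, 0.096) did not. *Celf2* (-0.18 ± 0.05), *Hnrnpc* (-0.18 ± 0.06) and *Rbfox2* (-0.15 ± 0.05) were lower, and *Srsf9* (0.21 ± 0.05) and the scarce *Celf3* (1.01 ± 0.36) higher. At E14.5 no member passed at the periphery, where 4.26% of all genes were higher and 2.91% lower, 4 members and 18.7% of all genes had an unadjusted p under 0.05, and DESeq2 called 0 members.

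Muscle content moved with position at E18.5. The summed muscle genes were at 152103 and 163386 CPM at the center, 190687 and 192793 in intermediate muscle and 141635 and 138529 at the periphery. Tendon genes were at 1224 and 1736 CPM at the periphery against 371 and 496 in intermediate muscle, and Schwann cell genes at 55.6 and 65.2 CPM at the center against 30.0 and 26.2. Their part in the differences between regions was not tested. Library size scaling moved the median of all genes by 0.14 at the center and 0.22 at the periphery. It gave 13 members higher and 1 lower at the center, where 2038 of all genes were higher and 331 lower, and 28 higher and 1 lower at the periphery (38.3% and 7.86% of all genes). In each region, then, at most 1 of the members lower under TMM still passed as lower. Upper quartile scaling gave 8 higher and 3 lower at the periphery (16.2% and 16.3% of all genes). On the library size scale *Celf2* (0.04), *Hnrnpc* (0.04) and *Rbfox2* (0.07) changed sign at the periphery.

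**Figure D4:**
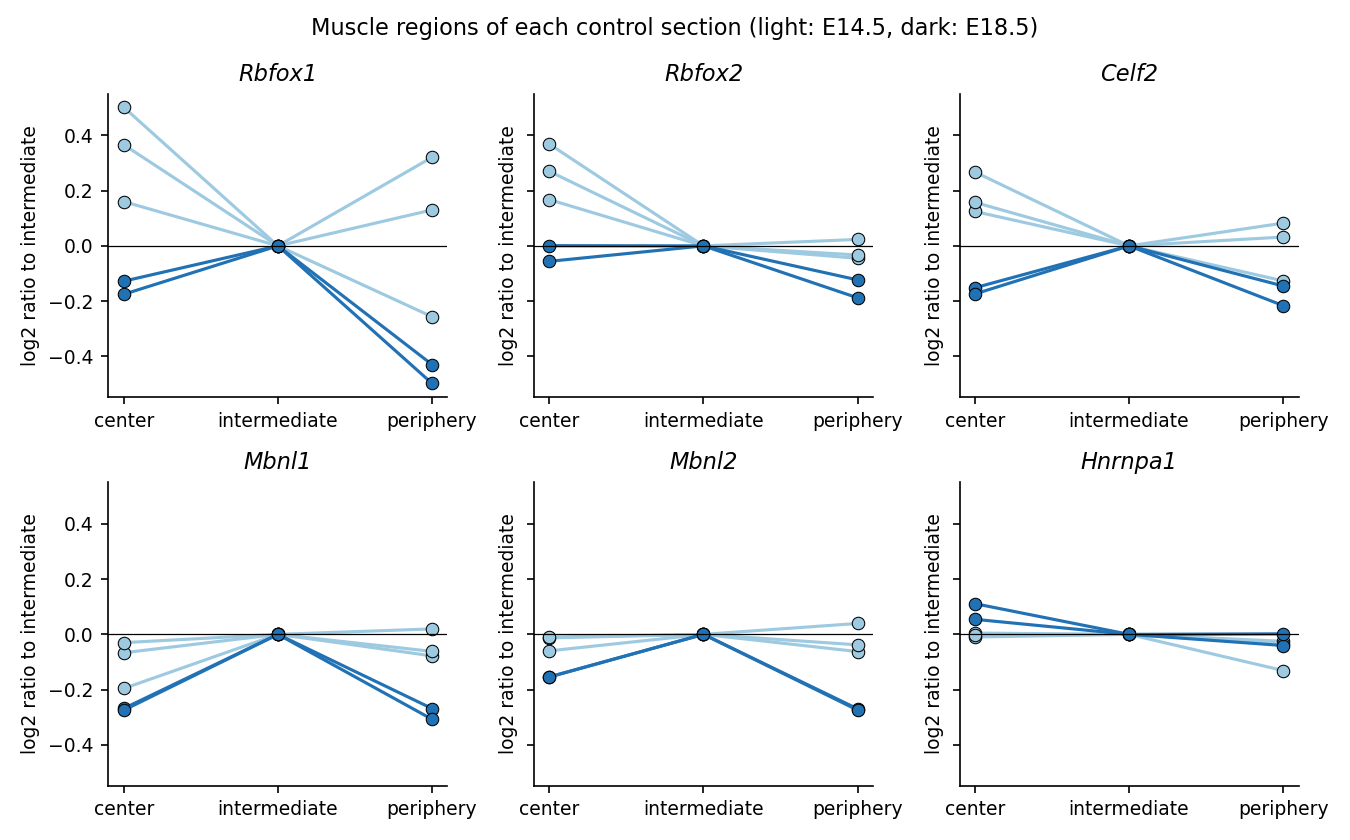
Log2 ratio of the level at the center, in intermediate muscle and at the periphery to that of intermediate muscle, for 6 genes, 1 line per control section, light for E14.5 and dark for E18.5. *Rbfox1*, *Rbfox2* and *Celf2* lie above 0 at the center in the 3 E14.5 sections, and *Rbfox1*, *Mbnl1* and *Mbnl2* lie below 0 at the periphery in both E18.5 sections.

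Position was also read as the distance of a muscle spot from the nearest spot outside muscle, as CPM without TMM scaling. Muscle spots within 100 µm of such a spot are called outermost. A muscle spot at a free border of the tissue can therefore count as far. The muscle content at each distance was not measured, and its part in these values was not tested. *Rbfox1* was lowest in the outermost 100 µm of muscle in 7 of the 8 sections. In E18.5 control 1 it read 74.6 within 100 µm, then 82.8, 84.8 and 89.6 beyond 300 µm, and in E18.5 control 2 it read 71.9, 90.3, 103 and 99.99. In the KO at E18.5 the values were 63.4, 88.3, 98.6 and 98.3 and in the cKO 47.8, 68.8, 70.9 and 72.4, so that the outermost spots were lowest in the mutants too. The KO at E14.5 was the exception, with 18.03, 19.2, 17.8 and 17.3, the last over 14 spots. *Mbnl1* read 124, 132, 132 and 134 in E18.5 control 1 and 128, 113, 130.0 and 119 in E18.5 control 2, so that it was lowest in the outermost spots of only the first of them. *Mbnl2* read 252, 234, 257 and 254 in E18.5 control 1 and 260, 264, 266 and 259 in E18.5 control 2. It was lowest in the outermost spots of neither. When the periphery was taken as the outermost spots in place of the score, *Rbfox1* was lower there at E14.5 also (-0.44, adjusted p = 0.0017).

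**Figure D5:**
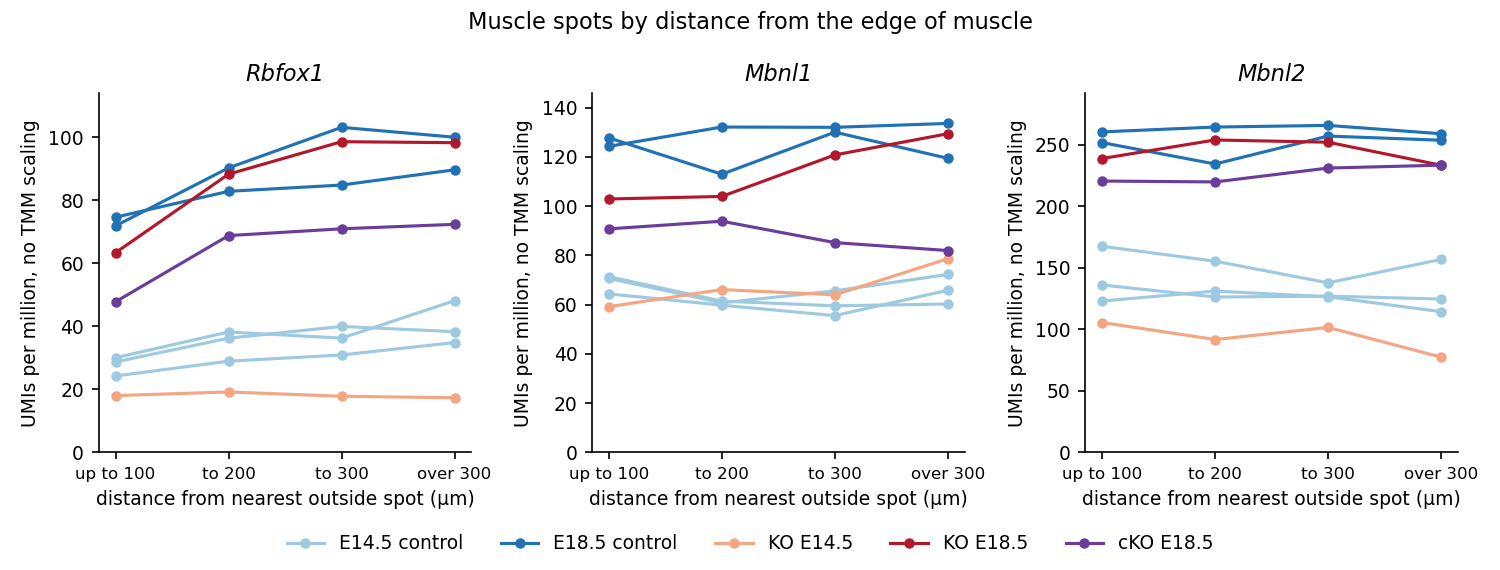
CPM (UMIs scaled to the library without TMM, linear axis from 0) of *Rbfox1*, *Mbnl1* and *Mbnl2* in muscle spots grouped by their distance in µm from the nearest spot outside muscle, 1 line per section, colored by group. *Rbfox1* is lowest within 100 µm of the nearest outside spot in all sections but the KO at E14.5, and *Mbnl1* runs from 124 to 134 in E18.5 control 1.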

How the data were processed

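The authors made the deposited count matrices (distinct UMIs per gene and spot, not normalized) with Space Ranger on mm10, per the file headers version 2.0.0 for the KO and the controls numbered 1 and 2 among the E14.5 sections and 2.0.1 for all others. No E18.5 section was made with 2.0.0, and E14.5 control 3, made with 2.0.1, can be read beside both. Deposited scores of spatial autocorrelation (Moran's I) and their p-values were not used.

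Spots with at least 1000 UMIs were kept. Muscle spots lay above Otsu's threshold of the 9 muscle genes (after scaling to 10000 UMIs per spot), and the junction genes that define the center are *Ache*, *Chrna1*, *Chrnd*, *Chrng*, *Etv5*, *Musk*, *Prkar1a* and *Ufsp1*, those of the periphery *Ankrd1*, *Col22a1*, *Rxrg* and *Uchl1*. UMIs were summed per section and compartment and all genes were fitted with edgeR 4.0.16 (quasi-likelihood, TMM, Benjamini-Hochberg over all genes, threshold 0.05) in R 4.3.3. One fit held the muscle sums of all 8 sections, another the outside sums, and fits within sections had the section as a block, with 3 residual degrees of freedom (6 for the regions). DESeq2 1.42.0, other scalings, filters, spot choices and leaving out each control section were alternatives. Distances used a spot pitch of 100 µm. The scripts were tested on simulated data.

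Muscle and outside sums of a section deviated together (r = 0.262 to 0.666), as did center and periphery (r = 0.108 to 0.615). Replicate numbers of the E14.5 and E18.5 controls did not (r = -0.329 and -0.321).

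Named were the 6 members with the largest change per direction among those called at a mean log2 CPM of 4 or more, 16 members fixed by name, and up to 4 genes per direction of each other splicing list at that level. Members outside this rule that are named (*Celf3*, *Celf4*, *Srsf12* and others) were chosen after their values were seen. The members and lists were chosen with earlier results of these data known. Promoters are RefSeq's for GRCm38.p6.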

Additional observations from a re-analysis of the deposited data

Results flagged for a closer look

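Members whose difference within 1 contrast was itself different between the ages are listed with the settings that bear on them. The excess of *Mbnl2* in muscle over outside grew by 0.75 on the log2 scale between E14.5 and E18.5 (edgeR adjusted p = 0.0036) and missed the threshold only under library size scaling (0.26, adjusted p = 0.08). That of *Mbnl1* grew by 0.57 (0.0068) and was 0.09 (0.54) under library size scaling and 0.58 (0.061) without the section as a replicate block. For *Rbfox1* it grew by 0.72 (0.03), and without E18.5 control 2 it was 0.46 (0.11), while leaving out each of E14.5 controls 1, 2 and 3 gave 0.67 to 0.76 with adjusted p of 0.056 to 0.11. The excess of *Hnrnpf* (-0.34, 0.046) and of *Srsf9* (-0.35, 0.045) became smaller, and both missed the threshold when the filter on low counts was dropped (adjusted p = 0.072 and 0.069), *Hnrnpf* also when any 1 of the 5 controls was left out. *Srsf9* missed it too without the section as a replicate block (0.088), without E14.5 control 1 (0.06), 2 (0.14) or 3 (0.11) and without E18.5 control 2 (0.15).

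The effect of the CaV1.1 KO on *Mbnl1* differed between E18.5 and E14.5 by -0.72 (adjusted p = 0.047) and that on *Hnrnpl* by -0.73 (0.03). Under library size scaling the difference was -0.20 for each (0.33 and 0.28). Without E14.5 control 2, E14.5 control 3 or E18.5 control 1 the calls for *Mbnl1* (adjusted p = 0.098, 0.11 and 0.073) and *Hnrnpl* (0.075, 0.085 and 0.05) were lost. Each KO age is 1 section.

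The excess at the center of muscle changed between the ages by -0.52 for *Rbfox1* (adjusted p = 2.8e-04) and by -0.35 for *Celf2* (1.2e-04), in a contrast chosen after the data were seen. With a stricter choice of muscle spots the values were -0.26 (0.25) and -0.20 (0.13), and neither passed.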

How the results depend on the processing

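Of the values of single members in muscle, outside and by region, 252 fell short of the threshold over the alternatives, 87 came to pass it, and 27 changed sign with a call in at least 1 of the settings compared. The other 2394 kept their side of the threshold, and 161 of these, called in neither setting, differed in sign. Counts of members called are given with the number from the main setting first. The comparison of ages in muscle (31) stayed within 28 to 32 without any 1 control. Without a replicate block of the section, muscle against outside gave 9 of 21 at E14.5, 12 of 20 at E18.5 and 1 of 5 for the difference, and center and periphery gave 0 of 7, 0 of 5 and 0 of 8. All genes lost calls without that block too. At the center of E14.5 muscle 141 genes were higher and 80 lower, from 1300 and 863. At E18.5 it was 140 and 12, from 604 and 1217, and 432 and 691 at the periphery, from 1536 and 2997. Muscle against outside gave 2493 and 1919 at E14.5, from 3251 and 2505, and 3864 and 3077 at E18.5, from 4392 and 3751. Their difference gave 1261 and 510, from 1961 and 1092. Pairing the controls of both ages by their number, which the data gave no ground for, left 31 calls between ages in muscle, 20 of 24 outside, 0 at E14.5 and 6 of 9 at E18.5 in the KO, 1 of 2 in the cKO and 0 of 2 for the change of the KO effect.

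Library size scaling gave 27 calls for the KO at E18.5 (9), 14 for the cKO (2), 16 for the change of the KO effect (2), 13 and 35 for muscle against outside at E14.5 (21) and E18.5 (20), 26 for their difference (5), and 14 and 29 at the center (5) and periphery (8) at E18.5. Upper quartile scaling gave 15 for the KO at E18.5, 13 for the difference in muscle excess and 2 at the center at E18.5. DESeq2 gave 2 for the KO at E14.5 (0), 6 for the change of the KO effect, 6 for the cKO, 1 at the center and 5 at the periphery at E18.5. With no filter on low counts the KO at E14.5 gave 1, the change of the KO effect 4 and the difference in muscle excess 3. Stricter muscle spots gave 1 for the KO at E14.5, and 1 each at the center at E14.5 (7), at the center at E18.5 and at the periphery at E18.5. Over all genes the stricter spots gave 379 higher and 135 lower at the center at E14.5 and 243 and 466 at E18.5. At the E18.5 periphery they gave 215 and 630. Regions of 10% gave 2 at the center at E18.5, and a periphery by distance gave 5 at E14.5 (0).

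Leaving out 1 control gave 1 to 7 calls at the center at E14.5 (3 without E14.5 control 1, 1 without control 2) and 1 to 5 at E18.5 (2 without E14.5 control 1, 1 without either E18.5 control). Muscle against outside ranged from 9 to 22 at E14.5 (9 and 10 without E14.5 controls 2 and 3), from 11 to 19 at E18.5 (11 without E18.5 control 2) and from 2 to 9 for the difference (2 without E14.5 control 2 or 3 or E18.5 control 2, 9 without E18.5 control 1). The KO gave 0 to 1 at E14.5 (1 without control 2) and 7 to 10 at E18.5, its change with age 0 to 3 (0 without E14.5 control 2 or 3 or E18.5 control 1) and the cKO 1 to 4 (1 without E14.5 control 3, 4 without E18.5 control 1). Outside muscle the ages gave 14 to 21 (15 without E14.5 control 2, 14 without E18.5 control 2). The periphery gave 0 to 2 at E14.5 (2 without control 3) and 3 to 11 at E18.5 (5 and 3 without E18.5 controls 1 and 2). In these fits a lone section is assumed to vary like the others. Over all genes the center at E14.5 gave 854 higher and 566 lower without E14.5 control 1, and 569 and 297 without control 2. Muscle against outside at E14.5 gave 1781 and 1289 without E14.5 control 2 and 2507 and 1912 without control 3.

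Under library size scaling the sign changed in the KO at E18.5 for *Celf1* (0.37), *Rbfox2* (0.48), *Hnrnpl* (0.09) and *Hnrnpul2* (0.16), between ages for *Srsf2* (-0.51), in muscle against outside at E18.5 for *Hnrnpa1* (-0.66), *Hnrnpa2b1* (-0.43), *Hnrnpc* (-0.38), *Hnrnpk* (-0.33), *Hnrnpr* (-0.22), *Hnrnpu* (-0.67), *Mbnl1* (-0.27), *Srsf1* (-0.65), *Srsf3* (-0.58) and *Srsf7* (-0.64), at the periphery at E18.5 for *Celf2* (0.04), *Hnrnpa1* (0.20), *Hnrnpa2b1* (0.16), *Hnrnpc* (0.04), *Hnrnpk* (0.16), *Rbfox2* (0.07) and *Srsf3* (0.18), and at the center at E18.5 for *Srsf1* (0.14). That scaling takes the moved median of all genes as a change, while TMM sets the bulk of genes near no change. Which of them holds better here was not tested. With a periphery by distance the sign changed for *Celf1* at E14.5 (-0.15) and E18.5 (-0.16), *Celf2* at E14.5 (-0.24) and *Rbfox1* at E14.5 (-0.44), and the cause was not tested. Each mutant group held a single section and E18.5 had 2 controls, with 12835167 UMIs or more in the muscle of each section. Whether the number of sections or the depth limits these comparisons was not tested.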
